A study of Mus musculus with 12 samples.

Results

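The genes named Zfp followed by a number encode mouse zinc finger proteins, and 229 assembled loci of such genes were well expressed in mouse embryonic stem cells or in their early differentiated progeny. Members were chosen by name and level from the deposited tables. A member is a locus of the merged transcript assembly whose annotated gene matches this naming scheme and whose mean in the deposited normalized table reached 10 CPM (counts scaled to a common library total) in at least 1 of the 3 groups. Zfp42 was left out by the same rule. Of 335 Zfp loci among 80012 counted loci, 325 were in the normalized table, 229 reached the threshold and 96 did not.

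Poly(A) RNA was measured in 12 libraries of an Eomes-EGFP reporter line of embryonic stem cells, in which EGFP was inserted at the start of the endogenous Eomes gene. All 3 groups carried this reporter. 4 libraries came from undifferentiated cells kept on mouse embryonic fibroblast feeders (ESC), and 8 came from cells differentiated for 3 days as embryoid bodies in hanging drops and separated by flow cytometry into EGFP-negative (Eo-) and EGFP-positive (Eo+) fractions, with 4 libraries each. Eomes marks mesendoderm, the common progenitor of mesoderm and endoderm, so the comparisons asked how gene expression differed between pluripotent cells, day 3 cells sorted as positive for the reporter and day 3 cells sorted as negative. The sort separates EGFP levels and not presence from absence of the transcript: Eomes averaged 46.5 CPM in ESC, 137 in the negative and 527 in the positive fraction, and was called higher in Eo- than in ESC (limma, log2 fold change 1.56, adjusted p = 2.99e-06). The model is 1 reporter line, and the Eo- fraction is defined by absence of a signal, not by a cell identity. Replicate numbers are 1, 2, 5 and 6 in each group, and values are given in that order throughout.

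The classical C2H2 zinc finger folds around a zinc ion and contacts a short stretch of DNA, and arrays of such fingers read longer sites. Many mouse proteins of this family also hold a KRAB box, which recruits the corepressor Trim28 and through it the H3K9 methyltransferase Setdb1, so that the bound site, often a retroelement, is packed into heterochromatin. KRAB zinc finger genes arose by tandem duplication and lie in clusters, many of them on chromosome 7. In pluripotent cells this system keeps endogenous retroviruses silent and protects the methylation of imprinted regions after fertilisation. The name Zfp is only a naming scheme: it also covers C2H2 proteins without a KRAB box and CCCH proteins that bind RNA.

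The 229 members carried 251 Zfp gene names. A single gene name stood at 194 of the loci, while 35 loci joined transcripts of several annotated genes, 20 of them several Zfp genes, so their counts cannot be assigned to 1 gene. Members lay on 20 chromosomes, with 53 on chromosome 7, 29 on chromosome 17 and 16 on chromosome 13. In all, 117 members fell into 27 clusters, defined as runs of at least 3 Zfp loci with gaps of at most 500 kb, and 112 lay outside. At the threshold, the last loci inside were Zfp959, Zfp820 and Zfp667, whose highest group means were 10.14, 10.14 and 10.60 CPM, and the first outside were Zfp661, Zfp711 and Zfp46 with 9.97, 9.90 and 9.72 CPM. All 3 groups reached 10 CPM at 175 members, 2 groups at 37 and a single group at 17. Of the latter, 4 reached it in ESC, 2 in Eo- and 11 in Eo+ cells.

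Libraries held 648413022 to 837308168 locus counts, so that 3 counts, taken as the detection floor, corresponded to 0.00354 to 0.00467 CPM. The identity of the groups was checked on marker genes. All 6 pluripotency markers (Pou5f1, Nanog, Sox2, Esrrb, Klf4, Tfcp2l1) were lower and all 6 mesendoderm markers (Eomes, T, Mixl1, Mesp1, Gsc, Lhx1) higher in Eo+ than in ESC cells. In Eo- vs ESC, 5 of these pluripotency markers were called lower and Pou5f1 was not called. Of the mesendoderm markers, 4 were called higher there, and Mixl1 and Gsc were not called. The summed level of 9 fibroblast markers was 91.9 to 230.0 CPM in ESC, 25.8 to 35.8 CPM in Eo- and 18.3 to 30.3 CPM in Eo+ libraries. S100a4 averaged 11.9 CPM in ESC but 0.0104 and 0.00744 CPM in the fractions. Of the 9 markers, Lum and Fap were near 0 and not tested, and the other 7 were called lower in Eo+ vs ESC. Against ESC, 5 were called lower in the negative fraction, Dcn was not called and Thy1 was called higher, with 14.1 CPM in ESC and 21.3 CPM in Eo- cells. Summed visceral endoderm markers were at 2.296 to 46.6 CPM in Eo+ and summed primitive blood markers at 3.74 to 101 CPM in Eo- libraries, both highest in replicate 1. Of the 6 visceral endoderm markers, 4 were called higher and Amn lower in Eo+ vs ESC. The part of these cell types in any result was not tested, and in bulk RNA fewer cells of a type cannot be told apart from less RNA per cell.

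Most members were expressed at a few FPKM (fragments scaled to exon length and library total, the scale used here to compare genes). The median over members was 3 FPKM in ESC, 3.57 FPKM in Eo- and 3.51 FPKM in Eo+ cells. The highest level, 54.8 FPKM in ESC, belonged to the locus of Zfp513, which is joined with the phosphatase gene Ppm1g. Zfp36, an mRNA decay factor also called tristetraprolin, followed with 52.9 FPKM in ESC, and Zfp330 stood at 41.5 FPKM in ESC. Ranked by their highest group, members at the low end included joined loci of long summed exon length, such as the one of Zfp345 and Zfp442 with 0.871 FPKM in ESC. The lowest group mean was that of Zfp600 in Eo+ cells, with 0.0249 FPKM. Of all members, 82 had their highest mean in ESC, 43 in Eo- and 104 in Eo+ cells. Replicates were close: the median coefficient of variation over 4 libraries was 9.92% in ESC, 7.52% in Eo- and 7.71% in Eo+ cells, and the most variable members were Zfp703 in ESC and Eo- (46.8% and 38.5%) and Zfp462 in Eo+ cells (60%).

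A feature the choice of members did not use was the sequence of their promoters. Windows from 250 bases before to 50 bases after the start were taken from RefSeq annotation on GRCm38.p6 and matched by symbol, which gave 253 windows for 208 of the 251 names. The recognition sequence of Zfp143, whose 11 letters are the capitals in the sites printed below with the letter after ACTACA free, was searched on both strands and stood in 11.1% of these windows. Windows of other genes at 10 CPM or more held it in 1.95% of cases, and all 32851 windows in 1.02%. The match was more frequent in clusters: 17.9% of the 123 windows of clustered members held it, 4.62% of the 130 windows outside, and 15% of the 147 windows of Zfp genes below the level threshold. Windows of tandem duplicates share ancestry and are not independent, so these shares are a description.

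**Figure D1:**
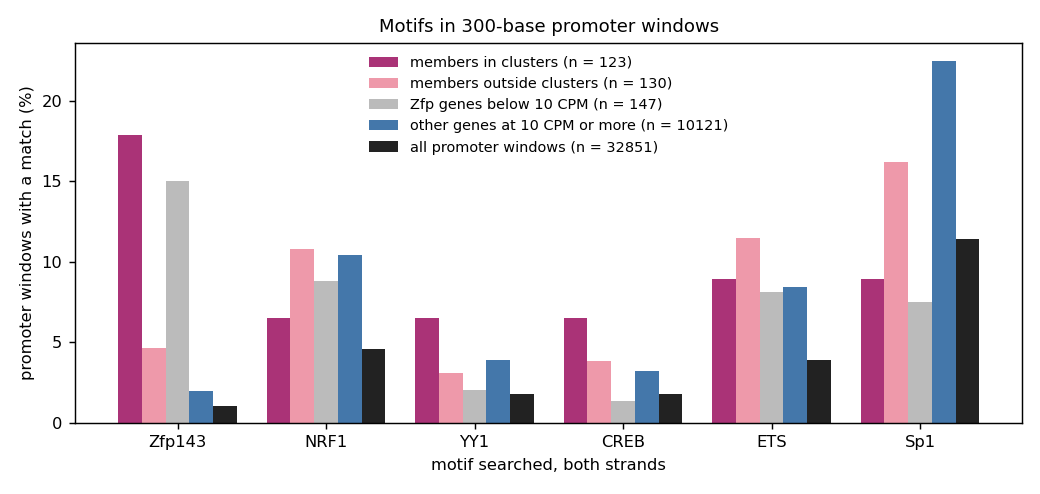
Share of 300-base promoter windows (y axis, %) with at least 1 match to each of 6 motifs (x axis, both strands), for windows of clustered members, of members outside clusters, of Zfp genes below 10 CPM, of other genes at 10 CPM or more and of all genes. The Zfp143 motif stands at 17.9% in clustered members against 1.95% in other expressed genes, while the Sp1 motif stands at 8.94% against 22.5%.

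The 29 sites lay in 28 windows of 25 members, 19 of them in clusters. In 22 sites the motif ran on the strand opposite to the gene and in 7 on the same strand. Counted from the start of the gene, the first base of a site lay between -224 and -1, with a median of -50. The sites are shown for members that rose most, fell most or stayed near 0 in Eo+ vs ESC cells, with the match in capitals and 10 bases on each side, 5′ to 3′ on the strand of the match (GRCm38.p6). The first 4 belong to members with a positive fold change.
Zfp334, chr2:165388356-165388386, plus strand: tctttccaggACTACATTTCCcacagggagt
Zfp260, chr7:30095038-30095068, minus strand: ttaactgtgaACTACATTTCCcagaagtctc
Zfp146, chr7:30169850-30169880, plus strand: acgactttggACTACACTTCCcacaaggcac
Zfp189, chr4:49521145-49521175, minus strand: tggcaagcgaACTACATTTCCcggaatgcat
The next 4 belong to members with a negative fold change.
Zfp566, chr7:30090566-30090596, minus strand: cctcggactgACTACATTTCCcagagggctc
Zfp180, chr7:24081865-24081895, minus strand: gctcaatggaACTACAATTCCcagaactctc
Zfp74, chr7:29954095-29954125, plus strand: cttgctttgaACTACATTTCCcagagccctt
Zfp738, chr13:67683547-67683577, plus strand: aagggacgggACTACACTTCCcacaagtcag
The last 2 belong to members whose fold change was close to 0.
Zfp940, chr7:29853664-29853694, plus strand: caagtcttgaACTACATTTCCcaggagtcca
Zfp874a, chr13:67451636-67451666, plus strand: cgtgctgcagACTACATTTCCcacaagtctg
Zfp189 was below 10 CPM in ESC, and the loci of Zfp566, Zfp738 and Zfp874a are joined with other genes. Of the 25 members with a site, 7 were called higher, 7 lower and 8 not called in Eo+ vs ESC cells, and 3 were below 10 CPM in a group. Over all loci at 10 CPM or more in both groups, 66.8% were called, 38.6% higher and 28.2% lower.

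The whole window of Zfp334 (chr2:165388210-165388509, minus strand, 300 bases, GRCm38.p6) is shown because this member had one of the largest rises and holds both a Zfp143 site, here as its reverse complement, and a site of the activator NRF1, both in capitals.
Zfp334 promoter: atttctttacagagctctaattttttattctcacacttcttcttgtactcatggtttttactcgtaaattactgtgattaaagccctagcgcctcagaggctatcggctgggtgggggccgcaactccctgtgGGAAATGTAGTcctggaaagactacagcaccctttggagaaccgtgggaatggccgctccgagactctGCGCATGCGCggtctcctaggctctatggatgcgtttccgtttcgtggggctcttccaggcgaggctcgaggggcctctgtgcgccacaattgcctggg
Searched in the same windows, the NRF1 motif, shown in capitals in the Zfp334 window with 1 letter free, stood in 8.7% of member windows against 10.4% in other expressed genes, and the ETS motif CCGGAAGT in 10.3% against 8.45%. The Sp1 motif GGGGCGGGG was less frequent, with 12.6% against 22.5%. The YY1 motif stood in 4.74% against 3.91% and the CREB motif TGACGTCA in 5.14% against 3.23%. A CCAAT box stood in 46.2% against 37.4%, and TATAAA in 7.11% against 6.75%. Zfp143 itself, an activator that binds promoters, is a member outside clusters (XLOC_062842, chr7:110061255-110095392, plus strand). It was read at 30.96, 31.7, 23.8 and 40.4 CPM in ESC, 29.7, 24.4, 27.2 and 27.5 CPM in Eo- and 30.7, 29.96, 26.8 and 28.04 CPM in Eo+ libraries. The groups overlapped. Its log2 fold change was -0.10 ± 0.13 (SE, adjusted p = 0.49) in Eo+ vs ESC, -0.19 ± 0.13 (SE, adjusted p = 0.209) in Eo- vs ESC and 0.09 ± 0.13 (SE, adjusted p = 0.597) in Eo+ vs Eo- cells. Without ESC replicate 5, the Eo- vs ESC value was -0.32 and was called (adjusted p = 0.017).

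Differential expression was tested with limma-voom over all 17922 tested loci, and a locus was called at a Benjamini-Hochberg adjusted p of at most 0.05. Because a member that reached 10 CPM only in 1 group of a comparison was chosen through its higher group, counts and adjusted p-values below are restricted to members at 10 CPM or more in both groups. In Eo+ vs ESC cells, 126 of 177 such members were called (71.2%), 71 higher and 55 lower. The background was 71.9% of all loci tested and 66.8% of the loci at 10 CPM or more in both groups. By direction, 40.1% of members were called higher and 31.1% lower, against 38.6% and 28.2% of these loci. In Eo- vs ESC cells, 117 of 186 were called (62.9%), 60 higher and 57 lower, against 62.2% of all loci and 56.9% at this level. The share called higher was 32.3%, against 30.9% of all loci and 29.5% at this level. The balance of directions depended on the scaling here: library totals gave 72 higher and 46 lower, and DESeq2 size factors 53 higher and 61 lower. In Eo+ vs Eo- cells, 79 of 199 were called (39.7%), 49 higher and 30 lower, against 47.7% of all loci and 42.1% at this level. Here 24.6% were called higher, against 23% and 28.1%. These shares of members lay near the background in each comparison.

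**Figure D2:**
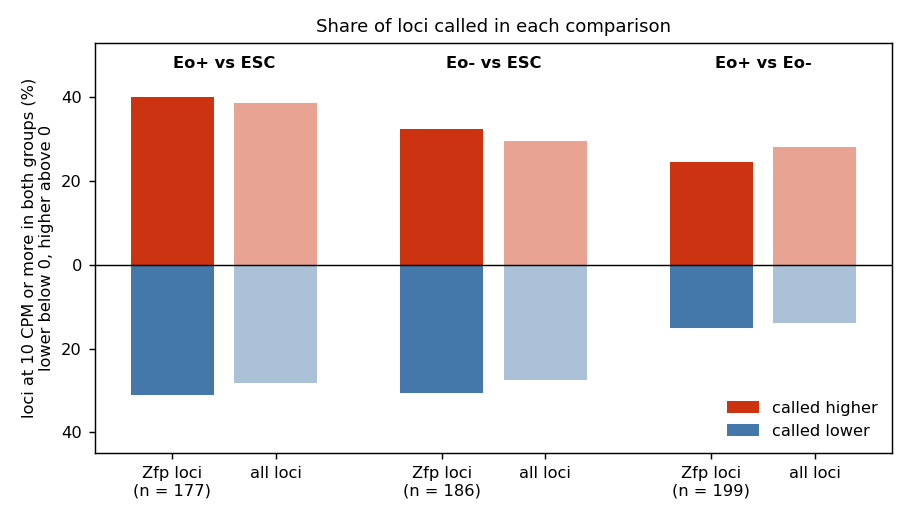
Share of loci (y axis, %) called higher (above 0) or lower (below 0) in each comparison, for Zfp members and for all loci at 10 CPM or more in both groups. In Eo+ vs ESC the Zfp bars reach 40.1% higher and 31.1% lower and those of all loci 38.6% and 28.2%.

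The median log2 fold change of members was 0.06 in Eo+ vs ESC against 0.07 over all loci at this level, and the median absolute value 0.38 against 0.35. In Eo- vs ESC the median absolute value was 0.32 against 0.27, and in Eo+ vs Eo- 0.20 against 0.19. Calls with a change of at least 2-fold in Eo+ vs ESC were made at 27 of the 177 members (15.3%), against 12.1% of loci at this level and 38.1% of all loci tested. In Eo- vs ESC there were 12 (6.45%), against 6.89% at this level and 28.3% of all loci, and between the fractions 2 (1.01%), against 3.98% at this level and 21.1% of all loci. Calls in which the libraries of the 2 groups did not overlap were made at 111 of the 177 members (62.7%), against 57.8% of loci at this level and 63.7% of all loci tested. In Eo- vs ESC they were made at 106 of the 186 members (57%), against 47% at this level and 54.2% of all loci tested. For the fractions this held for 72 of the 199 members (36.2%), against 35.7% at this level and 41.2% of all loci tested. Loci with 1 gene name (108 of 148 called, 64 higher and 44 lower) and joined loci (18 of 29 called, 7 higher and 11 lower) both included calls in each direction, against 66.8% of loci called at this level, 38.6% higher and 28.2% lower.

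Among members with 1 gene name at 10 CPM or more in both groups, the largest rises in Eo+ vs ESC cells belonged to Zfp358, Zfp334, Zfp703 and Zfp516. Zfp358 (XLOC_066457, chr8:3493138-3497208, plus strand) was read at 10.02, 10.9, 10.8 and 9.34 CPM in ESC, 23.1, 26.1, 23.1 and 24.5 CPM in Eo- and 37.7, 36.7, 37.2 and 35.9 CPM in Eo+ libraries. The 3 groups did not overlap and the order was ESC, Eo-, Eo+. It had a log2 fold change of 1.85 ± 0.08 (SE, adjusted p = 6.32e-10) in Eo+ vs ESC and 1.24 ± 0.08 (SE, adjusted p = 6.09e-08) in Eo- vs ESC. Zfp334 (XLOC_042719, chr2:165374264-165388330, minus strand), whose promoter is printed above, was read at 10.9, 10.8, 12.6 and 12.2 CPM in ESC, 29.5, 27.8, 28.3 and 29.6 CPM in Eo- and 38.2, 46.2, 36.7 and 41.03 CPM in Eo+ libraries. It showed the same order without overlap. The log2 fold changes were 1.80 ± 0.09 (SE, adjusted p = 2.46e-09) in Eo+ vs ESC and 1.31 ± 0.10 (SE, adjusted p = 1.4e-07) in Eo- vs ESC. Zfp516 (XLOC_033790, chr18:82910879-83005472, plus strand), an activator of the Ucp1 gene in brown fat, behaved differently: it was read at 14.6, 12.8, 9.301 and 14.5 CPM in ESC, 17.7, 12.9, 11.8 and 10.7 CPM in Eo- and 47.1, 45.1, 34.9 and 44 CPM in Eo+ libraries. All 4 Eo+ libraries stood above all others, and ESC and Eo- overlapped. The log2 fold change was 1.76 ± 0.16 (SE, adjusted p = 4.39e-07) in Eo+ vs ESC and 0.05 ± 0.19 (SE, adjusted p = 0.814) in Eo- vs ESC.

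The largest falls in the same set belonged to Zfp229, Zfp36, Zfp428 and Zfp532. Zfp229 (XLOC_029823, chr17:21730696-21769976, plus strand) was read at 60.5, 49.2, 40.9 and 55.2 CPM in ESC, 16, 13.7, 14.7 and 13.4 CPM in Eo- and 13.1, 11.4, 12.6 and 10.5 CPM in Eo+ libraries. Every ESC library was above every sorted library. The fitted log2 value was -2.10 ± 0.13 (SE, adjusted p = 1.31e-08) in Eo+ vs ESC and -1.82 ± 0.13 (SE, adjusted p = 8.05e-08) in Eo- vs ESC. Zfp428 (XLOC_061327, chr7:24505470-24515747, plus strand) was read at 71.6, 98.2, 79.5 and 92.8 CPM in ESC, 35.8, 56.4, 34.3 and 43.1 CPM in Eo- and 27.4, 28.7, 27.5 and 32.9 CPM in Eo+ libraries. The groups formed 3 steps without overlap, with log2 fold changes of -1.55 ± 0.15 (SE, adjusted p = 5.52e-07) in Eo+ vs ESC and -1.03 ± 0.14 (SE, adjusted p = 2.9e-05) in Eo- vs ESC. Zfp532 (XLOC_033584, chr18:65580230-65689460, plus strand) was read at 87.3, 76.6, 74.1 and 78.9 CPM in ESC, 47.6, 54.6, 47.2 and 53.5 CPM in Eo- and 26.2, 36.1, 30.8 and 33.3 CPM in Eo+ libraries, again in 3 steps. The log2 fold change was -1.34 ± 0.10 (SE, adjusted p = 4.01e-08) in Eo+ vs ESC and -0.64 ± 0.09 (SE, adjusted p = 3.69e-05) in Eo- vs ESC. Most of the fibroblast markers given above, Thy1 and Dcn in Eo- vs ESC being the exceptions, were also higher in ESC libraries, and their part in these falls was not tested.

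**Figure D3:**
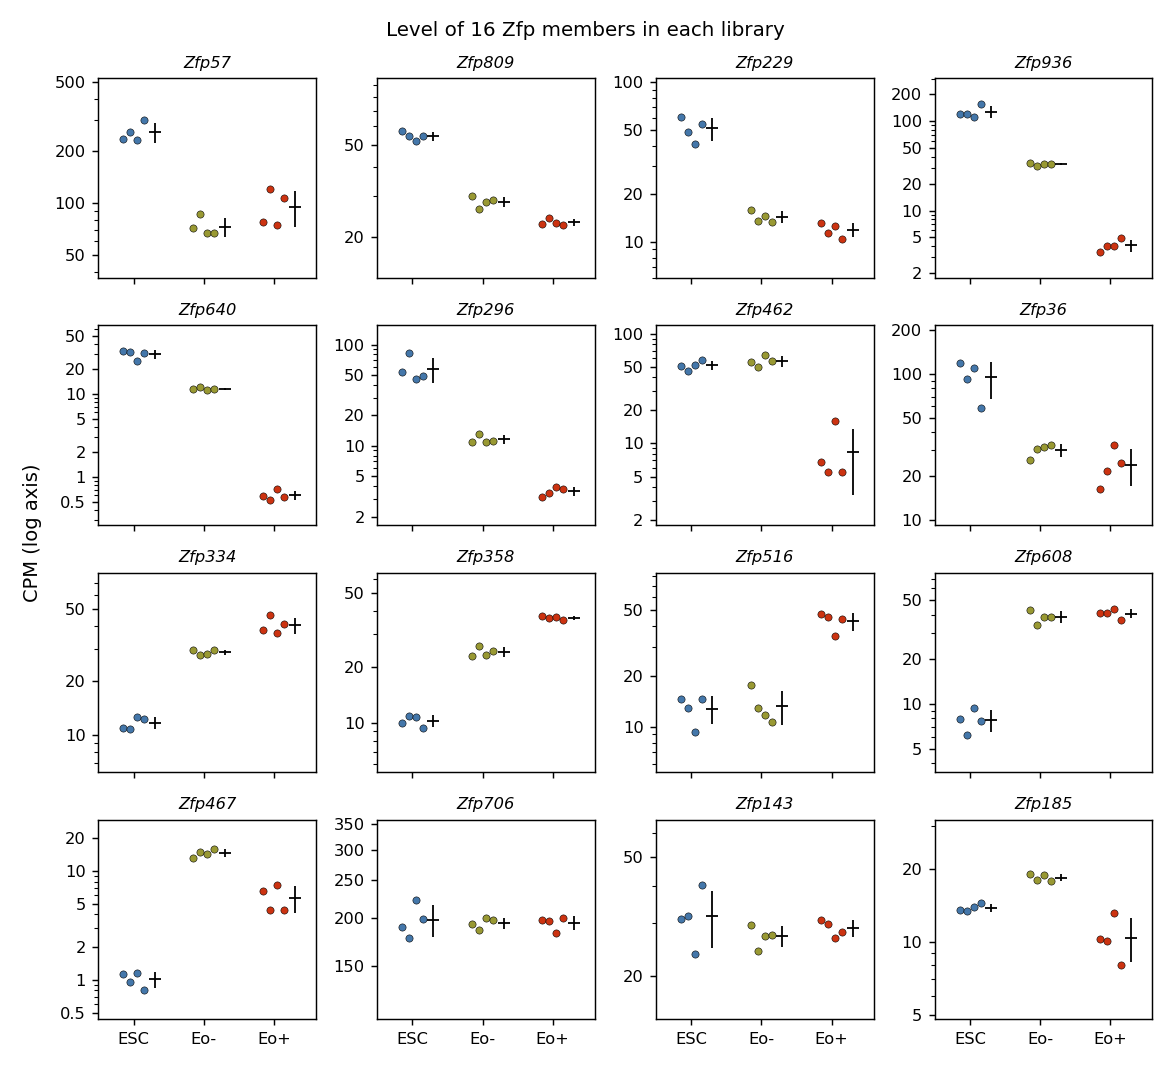
CPM (log axis) of 16 members in each of the 12 libraries, with points for replicates 1, 2, 5 and 6 of ESC, Eo- and Eo+ from left to right, and mean ± SD beside them. Zfp358 and Zfp334 rise in steps from ESC to Eo+, Zfp57 and Zfp229 fall in both fractions, and Zfp706 stays at 194 to 197 CPM in the group means.

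In Eo- vs ESC cells, Zfp334 and Zfp358 again had the largest rises among members with 1 gene name, followed by Zfp395 and Zfp217. Zfp395 (XLOC_022021, chr14:65358118-65398936, plus strand) was read at 16.3, 19.3, 13.2 and 16.2 CPM in ESC, 35.5, 33.8, 31.3 and 32.5 CPM in Eo- and 37.6, 39.1, 36.01 and 35.2 CPM in Eo+ libraries. Both fractions stood above all ESC libraries, and its log2 fold change was 1.05 ± 0.10 (SE, adjusted p = 1.13e-06) in Eo- vs ESC. Between the fractions it was 0.15 ± 0.09 (adjusted p = 0.169), and adjusted p = 0.0395 in a fit of the 8 sorted libraries with the replicate number as a block, the fit meant by the block below. A block over all 12 libraries gave 0.104. The largest falls of members with 1 gene name in Eo- vs ESC cells were those of Zfp296, Zfp534, Zfp229 and Zfp36. The joined loci of Zfp936 and Zfp57, described below, fell by more than Zfp36. Zfp534 (XLOC_051993, chr4:147673502-147702553, minus strand) was read at 43.2, 34.7, 38.3 and 52.8 CPM in ESC, 11.03, 10.98, 11.3 and 11.2 CPM in Eo- and 1.58, 1.21, 1.86 and 1.499 CPM in Eo+ libraries. These were 3 steps without overlap. In the fit this gave a log2 fold change of -1.90 ± 0.13 (SE, adjusted p = 7.76e-08) in Eo- vs ESC, while in Eo+ cells it was below the level threshold. Related KRAB genes lie in an array on chromosome 4, and reads that mapped to several places were not counted, so its level and that of Zfp600 below are uncertain.

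Members that differed between the sorted fractions were fewer. The largest rises in Eo+ vs Eo- cells among members with 1 gene name were those of Zfp516, Zfp362, Zfp768 and Zfp629. Zfp516, described above, had a log2 fold change of 1.70 ± 0.16 (SE, adjusted p = 3.44e-06). Zfp362 (XLOC_051492, chr4:128773088-128806045, minus strand) was read at 5.18, 5.73, 4.801 and 4.76 CPM in ESC, 19.1, 17.9, 15.03 and 15.4 CPM in Eo- and 39.1, 41.9, 32.1 and 40.1 CPM in Eo+ libraries. It increased in 3 steps, with 1.18 ± 0.10 (SE, adjusted p = 1.94e-06) in Eo+ vs Eo- cells. Zfp768 and Zfp629 lie in the same chromosome 7 cluster and had 0.67 ± 0.09 (SE, adjusted p = 6.58e-05) and 0.64 ± 0.07 (SE, adjusted p = 1.63e-05). The largest falls in the same set were those of Zfp185, Zfp219, Zfp532 and Zfp808. Zfp185 (XLOC_075148, chrX:72987335-73031543, plus strand), a LIM domain protein that binds actin, was read at 13.5, 13.3, 13.9 and 14.5 CPM in ESC, 19.1, 17.97, 18.8 and 17.7 CPM in Eo- and 10.3, 10.1, 13.2 and 8.04 CPM in Eo+ libraries. The order of the groups was Eo-, ESC, Eo+, with no overlap between any of them. Its log2 fold change was -0.43 ± 0.12 (SE, adjusted p = 0.0055) in Eo+ vs ESC, 0.41 ± 0.11 (SE, adjusted p = 0.00439) in Eo- vs ESC and -0.84 ± 0.11 (SE, adjusted p = 5.76e-05) in Eo+ vs Eo- cells. Zfp219 (XLOC_023333, chr14:51999424-52020772, minus strand), a partner of Sox9 in cartilage, was read at 112, 151, 104 and 132 CPM in ESC, 90.1, 124, 102 and 106 CPM in Eo- and 55.99, 63.7, 74.5 and 59.5 CPM in Eo+ libraries. The 4 Eo+ libraries were the lowest, and ESC and Eo- overlapped. It had a log2 fold change of -0.73 ± 0.13 (SE, adjusted p = 0.000473) in Eo+ vs Eo- cells. Zfp532 and Zfp808 had -0.69 ± 0.10 (SE, adjusted p = 8.59e-05) and -0.68 ± 0.10 (SE, adjusted p = 7.22e-05). With the replicate number as a block in the 8 sorted libraries, 106 of the 199 members were called, 64 higher and 42 lower, against 53.9% of loci at this level called, 35.4% higher and 18.5% lower in that fit. The 106 included the 79 calls made without it.

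A further 50 members were at 10 CPM or more in only 1 of Eo+ and ESC cells, 35 of them higher and 15 lower in Eo+. They entered through their higher group, so they are described without a test. The widest differences were on the lower side. Zfp600 (XLOC_049402, chr4:146156824-146198755, plus strand), a KRAB gene linked to retroelement silencing, was read at 11.9, 9.91, 9.91 and 14.9 CPM in ESC, 1.96, 1.97, 2.19 and 2.11 CPM in Eo- and 0.0905, 0.153, 0.142 and 0.106 CPM in Eo+ libraries. The 3 groups stood far apart, and the log2 difference of -6.56 ± 0.28 in Eo+ vs ESC was the widest of all members. The locus of Zfp640, joined with 2410141K09Rik (XLOC_020024, chr13:66418114-66792862, minus strand), was read at 32.3, 31.8, 24.5 and 31.4 CPM in ESC, 11.5, 11.9, 10.98 and 11.4 CPM in Eo- and 0.588, 0.533, 0.721 and 0.576 CPM in Eo+ libraries. The log2 difference was -5.63 ± 0.18 in Eo+ vs ESC. The locus of Zfp936, joined with EU599041 and Gm10351 (XLOC_061833, chr7:43078040-43244694, plus strand), was read at 120.5, 120.1, 112 and 156 CPM in ESC, 34.2, 31.9, 33.4 and 32.8 CPM in Eo- and 3.42, 3.99, 3.99 and 4.87 CPM in Eo+ libraries. It differed by -4.97 ± 0.15 in Eo+ vs ESC and was still at 10 CPM or more in Eo- cells, where it fell by 1.93 on the log2 scale against ESC (adjusted p = 7.3e-09). In all 3 loci the Eo- libraries lay between the other groups.

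On the higher side, Zfp521 (XLOC_033997, chr18:13687007-13972812, minus strand) was read at 2.38, 1.25, 1.74 and 1.37 CPM in ESC, 11.5, 8.38, 8.93 and 9.45 CPM in Eo- and 19.2, 19.4, 15.5 and 16.8 CPM in Eo+ libraries, with a log2 difference of 3.43 ± 0.19 in Eo+ vs ESC. Zfp202 (XLOC_070551, chr9:40192316-40213840, plus strand) was read at 1.22, 1.54, 1.58 and 1.68 CPM in ESC, 3.88, 2.59, 2.299 and 2.78 CPM in Eo- and 12.1, 11.3, 8.21 and 11.3 CPM in Eo+ libraries. Only its Eo+ mean reached the threshold. Zfp362, described above, differed by 2.90 ± 0.13 in the same comparison. For Eo- vs ESC cells, 32 members were at 10 CPM or more in 1 group, 26 higher and 6 lower. The widest difference was that of Zfp467 (XLOC_059269, chr6:48427697-48446184, minus strand), a regulator of the choice between bone and fat cells, which was read at 1.12, 0.946, 1.15 and 0.812 CPM in ESC, 13.1, 14.9, 14.5 and 16.02 CPM in Eo- and 6.52, 4.38, 7.46 and 4.35 CPM in Eo+ libraries. Its highest libraries were the Eo- ones, and the log2 difference was 3.86 ± 0.21 in Eo- vs ESC and -1.40 ± 0.16 between the fractions. Zfp951 (XLOC_055684, chr5:104812554-104860163, minus strand) was on the lower side and was read at 16.04, 16.6, 12.8 and 19.7 CPM in ESC, 9.04, 8.603, 7.61 and 11.2 CPM in Eo- and 3.49, 3.97, 3.64 and 4.46 CPM in Eo+ libraries, with a log2 difference of -0.83 ± 0.14 in Eo- vs ESC. In Eo+ vs Eo- cells, 26 members were at 10 CPM or more in 1 group, 13 higher and 13 lower. Zfp618, a reader of hydroxymethylated DNA, averaged 6.64 CPM in the negative and 13.5 CPM in the positive fraction, which is a difference of 1.03 ± 0.11 on the log2 scale.

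Members were also read by known role. The list of imprint and retroelement control held 9 loci found in the data, 1 of which, Zfp708, was below the level threshold. Of the 8 members, 6 were at 10 CPM or more in both groups in Eo+ vs ESC cells, where 1 (Zfp445) was called higher and 5 lower, against 66.8% of loci at this level called and 28.2% called lower. Their median log2 fold change was -0.77, against 0.07 over these loci. Zfp459 and Zfp600 were below 10 CPM in Eo+ cells. Zfp57 (XLOC_030317, chr17:36997964-37015821, plus strand), the KRAB protein that binds the methylated allele of imprinted regions and keeps it methylated, is joined here with the predicted gene Gm22388. It was read at 234, 258, 231 and 304 CPM in ESC, 71.6, 86.3, 67.1 and 66.9 CPM in Eo- and 77.8, 119.6, 75.01 and 107 CPM in Eo+ libraries. Every ESC library was above every sorted library, and the fractions overlapped. The log2 fold change was -1.46 ± 0.14 (SE, adjusted p = 6.41e-07) in Eo+ vs ESC and -1.81 ± 0.14 (SE, adjusted p = 2.61e-07) in Eo- vs ESC. Comparing the fractions gave 0.36 ± 0.15 (SE, adjusted p = 0.0668), and adjusted p = 0.0157 with the block. It was also called between the fractions without Eo+ replicate 1, Eo+ replicate 5 or Eo- replicate 2 (adjusted p = 0.033, 0.021 and 0.0419). Zfp445 (XLOC_073799, chr9:122844532-122865971, minus strand), which acts with Zfp57 at imprinted regions, was read at 70.4, 69.4, 64.3 and 80.3 CPM in ESC, 91.4, 78.4, 84.99 and 87.6 CPM in Eo- and 88.4, 95.1, 90.5 and 86.98 CPM in Eo+ libraries. The Eo+ libraries were above the ESC libraries, and the Eo- range overlapped with theirs. The fitted log2 value was 0.35 ± 0.07 (SE, adjusted p = 0.000734) in Eo+ vs ESC and 0.27 ± 0.07 (SE, adjusted p = 0.00564) in Eo- vs ESC.

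Zfp809 (XLOC_070279, chr9:22225714-22243354, plus strand), which recognises the primer binding site of murine leukaemia viruses and silences retroviral DNA, was read at 57.5, 54.5, 51.7 and 54.3 CPM in ESC, 30.02, 26.5, 28.4 and 28.8 CPM in Eo- and 22.9, 24.3, 23.1 and 22.5 CPM in Eo+ libraries. The libraries fell into 3 steps without overlap. In the fit this gave a log2 fold change of -1.23 ± 0.07 (SE, adjusted p = 3.19e-09) in Eo+ vs ESC, -0.94 ± 0.06 (SE, adjusted p = 6.88e-08) in Eo- vs ESC and -0.29 ± 0.07 (SE, adjusted p = 0.0038) in Eo+ vs Eo- cells. Zfp568 (XLOC_061543, chr7:29983169-30028493, plus strand), the repressor of a placental Igf2 transcript, was read at 146, 133, 143 and 142 CPM in ESC, 99.9, 89.2, 84.4 and 100.1 CPM in Eo- and 114, 120.1, 94 and 121 CPM in Eo+ libraries. ESC libraries were the highest, and the Eo+ libraries mostly exceeded the Eo- ones. The log2 fold change was -0.34 ± 0.08 (SE, adjusted p = 0.00249) in Eo+ vs ESC, -0.60 ± 0.08 (SE, adjusted p = 3.95e-05) in Eo- vs ESC and 0.26 ± 0.09 (SE, adjusted p = 0.0235) in Eo+ vs Eo- cells. The last call was lost without Eo+ replicate 2, Eo+ replicate 6, Eo- replicate 2 or Eo- replicate 5 (adjusted p from 0.0616 to 0.0755). The joined locus of Zfp719 and Zfp819 (XLOC_061874, chr7:43579467-43620543, plus strand), of which Zfp819 has been linked to retroelement repression, was read at 49.5, 38.04, 37.2 and 49.1 CPM in ESC, 23.1, 21.1, 21.2 and 22.5 CPM in Eo- and 18.9, 20.1, 18.3 and 17.9 CPM in Eo+ libraries. All ESC libraries exceeded all sorted ones, with -1.19 ± 0.11 (SE, adjusted p = 2.93e-07) in Eo+ vs ESC and -0.97 ± 0.10 (SE, adjusted p = 3.2e-06) in Eo- vs ESC. In Eo+ vs Eo- cells the log2 fold change was -0.23 ± 0.11 (SE, adjusted p = 0.122), and adjusted p = 0.0256 with the block, but 0.0665 with a block over all 12 libraries.

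Zfp932, which binds endogenous retroviruses and is joined with Gm15446, had -0.24 ± 0.09 (SE, adjusted p = 0.0222) in Eo+ vs ESC. This call was lost without ESC replicate 6, Eo+ replicate 2 or Eo+ replicate 6, and with library totals in place of TMM (adjusted p from 0.0561 to 0.0738). Zfp459 (XLOC_020075, chr13:67405722-67421418, minus strand), a KRAB gene linked to retroelements, was read at 43.6, 27.8, 33.7 and 23.8 CPM in ESC, 18.6, 18.8, 19.1 and 16.02 CPM in Eo- and 3.68, 4.29, 4.85 and 3.68 CPM in Eo+ libraries. The groups formed 3 steps and Eo+ was below the threshold, so that only Eo- vs ESC was tested (log2 fold change -0.81 ± 0.16, adjusted p = 0.000536). Zfp600 was given above. Zfp708, below the threshold, had group means of 6.25, 8.14 and 9.15 CPM in ESC, Eo- and Eo+ cells.

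The pluripotency and self-renewal list held 8 members, of which 6 were at 10 CPM or more in both groups in Eo+ vs ESC cells, with 2 called higher, 2 lower and 2 not called, against 66.8% of loci called at this level. Zfp296 (XLOC_061221, chr7:19577287-19580656, plus strand), a factor of embryonic stem and germ cells, was read at 54.05, 82, 46.1 and 48.95 CPM in ESC, 10.9, 13.2, 11.02 and 11.3 CPM in Eo- and 3.12, 3.4, 3.94 and 3.73 CPM in Eo+ libraries. These were 3 steps, and Eo+ was below the threshold. Its log2 fold change was -2.28 ± 0.18 (SE, adjusted p = 2e-07) in Eo- vs ESC. Zfp462 (XLOC_047862, chr4:54945048-55083569, plus strand), a protein of heterochromatin and neural development, was read at 50.98, 45.9, 51.6 and 57.4 CPM in ESC, 54.6, 49.2, 63.8 and 56.1 CPM in Eo- and 6.77, 5.54, 15.96 and 5.45 CPM in Eo+ libraries. ESC and Eo- overlapped, and Eo+ replicate 5 stood above the other Eo+ libraries. It differed by -2.76 ± 0.23 in Eo+ vs ESC and -2.88 ± 0.23 between the fractions, and by -3.11 and -3.23 without Eo+ replicate 5. Zfp281 (XLOC_001850, chr1:136624078-136633288, plus strand), a Nanog partner that takes part in the exit from pluripotency, was read at 106, 89.1, 106 and 99.97 CPM in ESC, 100, 91.9, 112 and 102 CPM in Eo- and 65.8, 73.9, 68.7 and 66.4 CPM in Eo+ libraries. Only the Eo+ libraries stood apart, below all others. It had a log2 fold change of -0.54 ± 0.08 (SE, adjusted p = 2.46e-05) in Eo+ vs ESC, 0.01 ± 0.08 (SE, adjusted p = 0.889) in Eo- vs ESC and -0.56 ± 0.08 (SE, adjusted p = 6.77e-05) in Eo+ vs Eo- cells.

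Zfp217 (XLOC_042852, chr2:170108552-170148103, minus strand), a partner of the Lsd1 and CoREST complex, moved in the other direction and was read at 32.8, 27.9, 25.5 and 31.1 CPM in ESC, 62.7, 54.2, 56.9 and 57.3 CPM in Eo- and 67.2, 75.9, 59.5 and 66.1 CPM in Eo+ libraries. The fitted log2 value was 1.20 ± 0.10 (SE, adjusted p = 9.34e-08) in Eo+ vs ESC and 0.98 ± 0.10 (SE, adjusted p = 1.45e-06) in Eo- vs ESC. Between the fractions it was 0.21 ± 0.09 (SE, adjusted p = 0.0599), and adjusted p = 0.0457 with the block, 0.021 without Eo+ replicate 5 and 0.0383 without Eo- replicate 1. Zfp322a, an activator of Pou5f1 and Nanog, rose as well, with 0.79 ± 0.10 (SE, adjusted p = 7.35e-06) in Eo+ vs ESC and 0.62 ± 0.10 (SE, adjusted p = 0.00011) in Eo- vs ESC. Zfp207, a splicing and kinetochore factor, averaged 492 ± 58.6 CPM in ESC, 365 ± 12.4 in Eo- and 386 ± 23.2 in Eo+ cells (SD, n = 4), with -0.34 ± 0.08 (SE, adjusted p = 0.00149) in Eo+ vs ESC. Zfp706 (XLOC_025823, chr15:36993779-37007464, minus strand), which acts at the exit from self-renewal, was read at 189.5, 177, 222 and 199 CPM in ESC, 192, 186, 199 and 198 CPM in Eo- and 197, 196, 182 and 200.3 CPM in Eo+ libraries. All groups overlapped, and its log2 fold changes of -0.02, -0.02 and 0.00 had an SE of 0.07 each. Zfp143, given above, was not called in the fit of all libraries.

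**Figure D4:**
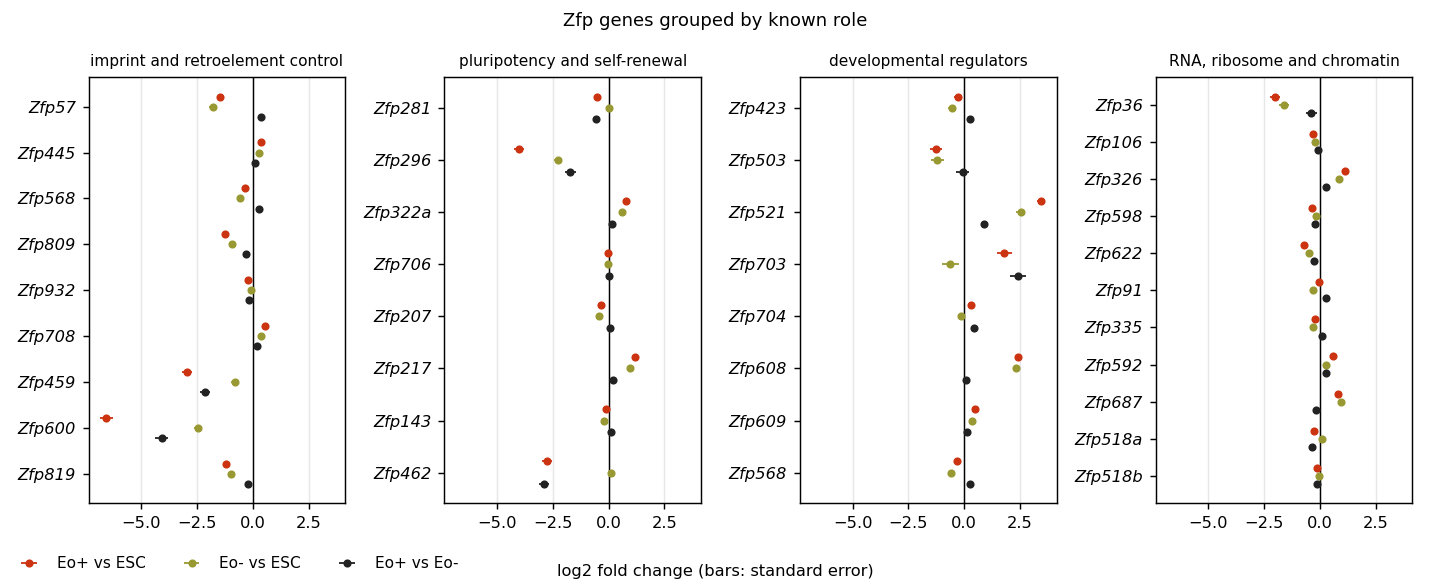
Log2 fold change with its standard error (x axis) of the genes of 4 role lists in the 3 comparisons, including Zfp708 and Zfp503, which were below the level threshold, and genes below 10 CPM in a group. Zfp57, Zfp809 and Zfp819 lie below -0.9 against ESC in both fractions, Zfp217 and Zfp326 near 1, and Zfp703 is higher in Eo+ than in Eo- cells.

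The developmental regulators held 7 members, of which 5 were at 10 CPM or more in both groups in Eo+ vs ESC cells, with 3 called higher, 1 lower (Zfp568, given above) and 1 not called, against 66.8% of loci called at this level. Zfp703 (XLOC_066857, chr8:26976795-26987784, plus strand), an Nlz corepressor, was read at 11.7, 12.2, 17.4 and 4.38 CPM in ESC, 10.97, 6.77, 4.72 and 5.84 CPM in Eo- and 47.7, 35.8, 26.9 and 36.7 CPM in Eo+ libraries. The Eo+ libraries were the highest, and the ESC and Eo- libraries overlapped and scattered widely. It rose in Eo+ vs ESC cells, with 1.80 ± 0.32 (SE, adjusted p = 0.000156). The related Zfp503, below the threshold, averaged 2.94, 1.34 and 1.24 CPM in ESC, Eo- and Eo+ cells. Zfp608 (XLOC_034502, chr18:54887912-54992601, minus strand) was read at 7.92, 6.16, 9.37 and 7.74 CPM in ESC, 42.8, 34.2, 38.6 and 38.5 CPM in Eo- and 40.95, 41.3, 43.5 and 36.6 CPM in Eo+ libraries. The fractions overlapped and lay far above ESC, which was below the threshold, with a log2 difference of 2.39 ± 0.12 in Eo+ vs ESC. Its paralog Zfp609, which binds the cohesin loader Nipbl, rose by less, with 0.47 ± 0.08 (SE, adjusted p = 0.000145) in Eo+ vs ESC and 0.33 ± 0.08 (SE, adjusted p = 0.00338) in Eo- vs ESC. Zfp521 was given above, and its paralog Zfp423, like it a partner of Ebf factors, had -0.29 ± 0.15 (SE, adjusted p = 0.11) in Eo+ vs ESC and -0.56 ± 0.16 (SE, adjusted p = 0.00666) in Eo- vs ESC. Between the fractions Zfp423 had 0.27 ± 0.16 (SE, adjusted p = 0.176), and adjusted p = 0.00407 with the block, but 0.0774 with a block over all 12 libraries. Without Eo+ replicate 5 it had 0.44 (adjusted p = 0.0162). Zfp704 had 0.28 ± 0.11 (SE, adjusted p = 0.0308) in Eo+ vs ESC, a call lost without ESC replicate 5, ESC replicate 6, Eo+ replicate 1 or Eo+ replicate 5 and with DESeq2 size factors (adjusted p up to 0.101), and 0.42 ± 0.11 (SE, adjusted p = 0.00577) in Eo+ vs Eo- cells.

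The list of RNA, ribosome and chromatin factors held 11 members, of which 3 were called higher, 5 lower and 3 not called in Eo+ vs ESC cells, against 66.8% of loci called at 10 CPM or more in both groups. Zfp36 (XLOC_064173, chr7:28376784-28379255, minus strand), a CCCH protein that binds AU-rich elements and promotes mRNA decay, was read at 119.7, 91.9, 109 and 58.2 CPM in ESC, 25.6, 30.5, 31.5 and 32.7 CPM in Eo- and 16.3, 21.5, 32.3 and 24.5 CPM in Eo+ libraries. ESC libraries spread widely but all exceeded the sorted ones, and the fractions overlapped. The log2 fold change was -2.01 ± 0.23 (SE, adjusted p = 2.79e-06) in Eo+ vs ESC and -1.62 ± 0.22 (SE, adjusted p = 2.39e-05) in Eo- vs ESC. Comparing the fractions gave -0.39 ± 0.25 (SE, adjusted p = 0.208), and adjusted p = 0.027 with the block, but 0.182 with a block over all 12 libraries. Zfp622, which acts in maturation of the large ribosomal subunit, fell, with -0.72 ± 0.09 (SE, adjusted p = 8.99e-06) in Eo+ vs ESC. Zfp598, the E3 ligase of collided ribosomes, and Zfp106, an RNA-binding protein, had -0.36 ± 0.09 (SE, adjusted p = 0.00171) and -0.31 ± 0.07 (SE, adjusted p = 0.00139). Zfp598 had -0.20 ± 0.09 (SE, adjusted p = 0.0712) in Eo+ vs Eo- cells, and adjusted p = 0.0119 with the block and 0.0358 without Eo+ replicate 2. Zfp335, a subunit of an H3K4 methyltransferase complex, had -0.24 ± 0.10 (SE, adjusted p = 0.0414) in Eo+ vs ESC, a call lost without any of 5 libraries (ESC replicates 1 and 2, Eo+ replicates 1, 2 and 5), with an adjusted p up to 0.145, and with library totals (adjusted p = 0.0828).

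The 3 higher members of this list were Zfp326, Zfp687 and Zfp592. Zfp326 (XLOC_053558, chr5:105876522-105915818, plus strand), a subunit of the DBIRD complex that couples elongation and splicing, was read at 24.6, 22.1, 29.1 and 32.7 CPM in ESC, 48.1, 44.6, 48.7 and 49.95 CPM in Eo- and 58.8, 57.2, 54.6 and 60.8 CPM in Eo+ libraries. The groups formed 3 rising steps, with 1.11 ± 0.10 (SE, adjusted p = 2.82e-07) in Eo+ vs ESC and 0.27 ± 0.09 (SE, adjusted p = 0.0255) in Eo+ vs Eo- cells. The latter call was lost without Eo+ replicate 1, Eo+ replicate 6 or Eo- replicate 2 (adjusted p from 0.0516 to 0.071). Zfp687 and Zfp592, partners in the Z3 complex, had 0.80 ± 0.06 (SE, adjusted p = 1.14e-07) and 0.57 ± 0.13 (SE, adjusted p = 0.00102) in Eo+ vs ESC. In Eo+ vs Eo- cells the log2 fold change of Zfp687 was -0.16 ± 0.06 (SE, adjusted p = 0.05005, not called) and that of Zfp592 0.28 ± 0.12 (SE, adjusted p = 0.0773), with adjusted p = 0.0495 and 0.00404 under the block. Zfp687 was also called without Eo+ replicate 2 (adjusted p = 0.0435) or Eo- replicate 5 (adjusted p = 0.0342) and with library totals (adjusted p = 0.0317), and Zfp592 without Eo+ replicate 5 (adjusted p = 0.0124). The E3 ligase gene Zfp91, joined with Cntf, was not called in Eo+ vs ESC cells (log2 fold change -0.03 ± 0.07, adjusted p = 0.709), but was lower in Eo- vs ESC (log2 fold change -0.31 ± 0.07, adjusted p = 0.0022) and higher in Eo+ vs Eo- cells (log2 fold change 0.28 ± 0.07, adjusted p = 0.00667). Not called in Eo+ vs ESC either were Zfp518a (log2 fold change -0.27 ± 0.13, adjusted p = 0.0863) and Zfp518b (log2 fold change -0.15 ± 0.11, adjusted p = 0.234). Without ESC replicate 5, Zfp518a was called, with -0.41 (adjusted p = 0.00317).

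The cofactors of KRAB proteins were read beside them. Of 25 cofactor and H3K9 methylation genes, 6 were called higher, 9 lower and 10 not called in Eo+ vs ESC cells, against 71.9% of all loci called and 66.8% of loci at 10 CPM or more in both groups, where all 25 lay. Trim28, the corepressor that KRAB boxes recruit, was read at 2366, 2575, 2331 and 2639 CPM in ESC, 1334, 1644, 1379 and 1612 CPM in Eo- and 1013, 1279, 1132 and 1294 CPM in Eo+ libraries. The 3 groups did not overlap. In the fit this gave a log2 fold change of -1.08 ± 0.09 (SE, adjusted p = 1.32e-07) in Eo+ vs ESC, -0.74 ± 0.09 (SE, adjusted p = 9.02e-06) in Eo- vs ESC and -0.34 ± 0.09 (SE, adjusted p = 0.00687) in Eo+ vs Eo- cells. Setdb1, the methyltransferase it recruits, was not called, with -0.08 ± 0.06 (SE, adjusted p = 0.222) in Eo+ vs ESC. Of the genes that act on H3K9-methylated chromatin, Smarcad1 had -1.14 ± 0.08 (SE, adjusted p = 2.77e-08), Morc3 -1.10 ± 0.07 (SE, adjusted p = 7.95e-09) and Fam208a, a subunit of the HUSH complex, -0.99 ± 0.08 (SE, adjusted p = 7.44e-08). Pphln1, another HUSH subunit, rose, with 1.43 ± 0.12 (SE, adjusted p = 1.53e-07), as did the H3K9 methyltransferase gene Suv39h1, with 1.00 ± 0.11 (SE, adjusted p = 1.57e-06). Between the fractions 3 of the 25 genes were called higher, 12 lower and 10 not called, against 23% of all loci called higher and 24.6% lower, and 28.1% and 14% of loci at 10 CPM or more in both groups.

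By position, 64 of the 90 clustered members at 10 CPM or more in both groups were called in Eo+ vs ESC cells (71.1%), 37 higher and 27 lower. Outside clusters, 62 of 87 were called (71.3%), 34 higher and 28 lower. Both shares lay near the 66.8% of loci called at this level and the 71.9% of all loci. Among the 27 clusters, 24 had at least 2 such members. In 7 of these the log2 fold changes of all such members were positive, in 2 they were negative and in 15 both signs were present. Calls in both directions were present in 10 clusters. In Eo- vs ESC cells 25 clusters had at least 2 such members, of which 7 were positive throughout, 6 negative throughout and 12 mixed. In Eo+ vs Eo- cells 5 were positive, 1 negative and 19 mixed, also of 25.

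**Figure D5:**
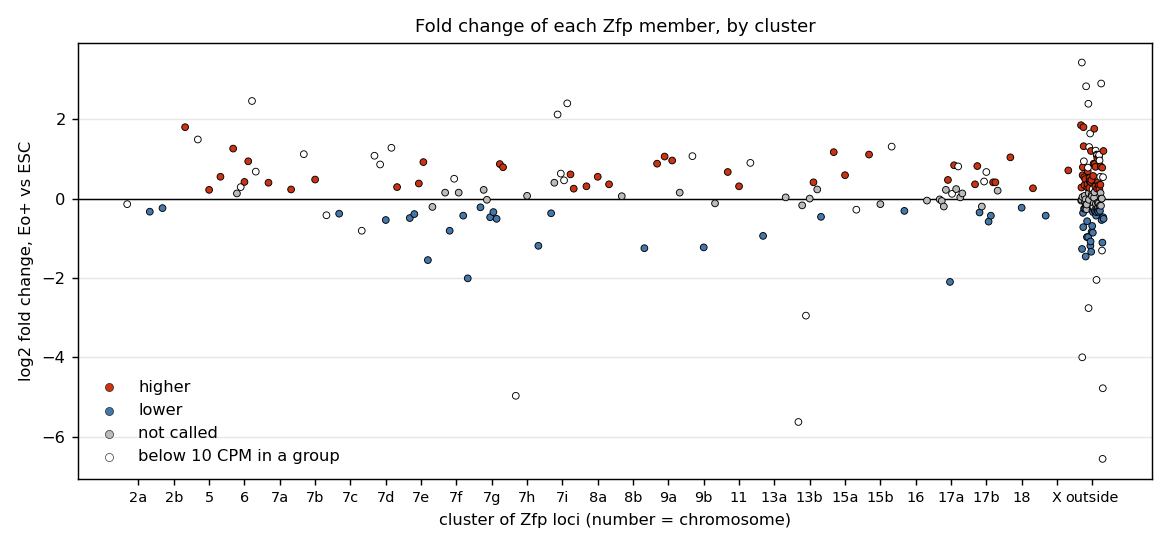
Log2 fold change in Eo+ vs ESC cells (y axis) of each of the 229 members, by cluster (x axis, the number is the chromosome, letters order clusters along it, members in genome order), with colours for higher, lower and not called, and open points for members below 10 CPM in a group. The filled points of clusters 6 and 9a lie above 0 and those of cluster 9b below 0, and clusters 7e and 7g hold members on both sides.

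The 7 clusters with positive values throughout, among members at 10 CPM or more in both groups, were those labelled 5, 6, 7a, 8a, 9a, 11 and 15a. Cluster 15a also held Zfp707, below 10 CPM in Eo+ cells, with a log2 difference of -0.28. The chromosome 6 cluster (chr6:47818069-48633691) held 7 members, of which 3 were called higher, 1 was not called and 3 were below 10 CPM in ESC. The 4 members at 10 CPM or more in all groups summed to 77.7 CPM in ESC and to 109 and 122 CPM in the negative and positive fractions. Zfp467, described above, is one of the 3 below the threshold in ESC. The joined locus of Zfp282 and Zfp398 had 1.26 ± 0.08 (SE, adjusted p = 1.68e-08) and Zfp746 0.94 ± 0.09 (SE, adjusted p = 7.6e-07). Cluster 9a (chr9:20345129-20597110) held Zfp26, Zfp426, Zfp266 and Zfp846, and its summed level was 109, 180 and 201 CPM in ESC, Eo- and Eo+ cells. Zfp426 (XLOC_072134, chr9:20468549-20492752, minus strand) was read at 9.46, 9.29, 9.99 and 11.99 CPM in ESC, 18.5, 15.03, 15.8 and 16.5 CPM in Eo- and 21.1, 21.9, 21.2 and 19.8 CPM in Eo+ libraries. Both fractions were above ESC, with 1.06 ± 0.10 (SE, adjusted p = 4.57e-07) in Eo+ vs ESC. Zfp266 and Zfp26 rose too, with 0.96 ± 0.10 (SE, adjusted p = 8.29e-07) and 0.88 ± 0.11 (SE, adjusted p = 5.66e-06), and Zfp846 was not called (log2 fold change 0.15 ± 0.10, adjusted p = 0.181).

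On chromosome 11 (chr11:50808667-51072867) the members were Zfp354a, Zfp354c and Zfp2. Zfp354a, below 10 CPM in ESC, had the widest difference, with a log2 value of 0.90 ± 0.12, and the other members were called higher. On chromosome 5 (chr5:138139688-138619761) Zfp113 averaged 8.79 ± 1.54 CPM in ESC and 24.3 ± 2.25 CPM in Eo+ cells (SD, n = 4), while Zfp68 and Zfp157 rose, with 0.55 ± 0.08 (SE, adjusted p = 2.03e-05) and 0.22 ± 0.09 (SE, adjusted p = 0.0308). In cluster 8a (chr8:69209039-69791178) all 3 members were called higher, with log2 fold changes from 0.31 to 0.55. In cluster 7i (chr7:127233061-127885996) 3 of the 4 members at 10 CPM or more in both groups had positive values, and the exception was Zfp553 (log2 fold change -0.37 ± 0.08, adjusted p = 0.000886). Zfp629 in this cluster (XLOC_066146, chr7:127605978-127615797, minus strand) was read at 5.75, 6.67, 5.78 and 6.02 CPM in ESC, 20.7, 20.5, 18.6 and 22.2 CPM in Eo- and 31.9, 33.8, 30.1 and 32.1 CPM in Eo+ libraries. It increased in 3 steps, and ESC was below the threshold.

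The 2 clusters with negative values throughout, 9b and 16, had 2 members each at this level. In cluster 9b these were Zfp809, described above, and Zfp599, which was not called (log2 fold change -0.12 ± 0.10, adjusted p = 0.272). Zfp653, also in cluster 9b but below 10 CPM in ESC, had a positive log2 difference of 1.07. In cluster 16, Zfp263 had -0.31 ± 0.08 (SE, adjusted p = 0.00254). In cluster 2a, with a single member at this level, the joined locus of Zfp345 and Zfp442 had -0.33 ± 0.08 (SE, adjusted p = 0.00161). In cluster 7c, Zfp418 was read at 11.8, 11.2, 11.3 and 8.81 CPM in ESC and 5.58, 6.58, 6.84 and 5.65 CPM in Eo+ libraries, a log2 difference of -0.81 ± 0.12. Cluster 7h (chr7:43078040-43620543) held the Zfp936 locus, below 10 CPM in Eo+ cells, and 2 members at 10 CPM or more in all groups. Zfp715, which lies between the Zfp936 locus and that of Zfp719 and Zfp819, was read at 19.5, 13.9, 15.97 and 14.5 CPM in ESC, 14, 9.87, 10.7 and 10.9 CPM in Eo- and 17.5, 18.5, 13.4 and 18.2 CPM in Eo+ libraries. ESC and Eo+ overlapped, with 0.07 ± 0.14 (SE, adjusted p = 0.648), whereas Eo- vs ESC gave -0.49 ± 0.15 (SE, adjusted p = 0.00989) and Eo+ vs Eo- 0.57 ± 0.15 (SE, adjusted p = 0.00599). Members of this cluster therefore had different values. In cluster 8b, Zfp961 (XLOC_067474, chr8:71951038-71993408, plus strand) was read at 90.95, 82.2, 83.7 and 82.4 CPM in ESC, 52.6, 45.4, 46.7 and 47.4 CPM in Eo- and 39.4, 35.9, 31.9 and 35.8 CPM in Eo+ libraries. It fell in 3 steps, with -1.25 ± 0.08 (SE, adjusted p = 8.13e-09) in Eo+ vs ESC, while the nearby joined locus of Zfp617 and Zfp882 was not called (log2 fold change 0.06 ± 0.11, adjusted p = 0.635).

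Mixed clusters made up most of the large ones. Cluster 7g (chr7:29768348-30169991) held 8 members, 2 called higher, 4 lower and 2 not called. Zfp260 (XLOC_061544, chr7:30094777-30107651, plus strand), described as an effector of cardiac gene expression, was read at 34.1, 31.4, 32.9 and 34.5 CPM in ESC, 53.5, 45.1, 50.3 and 47.7 CPM in Eo- and 66.3, 63.3, 58.2 and 54.9 CPM in Eo+ libraries. The groups formed 3 rising steps, with 0.87 ± 0.08 (SE, adjusted p = 3.31e-07) in Eo+ vs ESC. The joined locus of Zfp566 and Zfp82, which starts within 5 kb of Zfp260 on the other strand, was read at 34.9, 36.6, 39.95 and 32.8 CPM in ESC, 26.5, 26.4, 28.1 and 28.03 CPM in Eo- and 24.5, 27.1, 23.8 and 26.04 CPM in Eo+ libraries. All ESC libraries were above all sorted ones, with -0.51 ± 0.08 (SE, adjusted p = 4.04e-05) in Eo+ vs ESC. Zfp146 rose (log2 fold change 0.79 ± 0.06, adjusted p = 1.11e-07) and Zfp74 fell (log2 fold change -0.47 ± 0.11, adjusted p = 0.00146). The Zfp143 sites printed above stand in the windows of Zfp260, Zfp146, Zfp566, Zfp74 and Zfp940, so members of this cluster with the same motif had opposite directions. The summed level of the cluster was 323, 289 and 339 CPM in the same order.

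Cluster 7e (chr7:24081903-25227507) held 2 members called higher, 3 lower and 1 not called, from Zfp428 at the lower end to Zfp61, which had 0.92 ± 0.09 (SE, adjusted p = 9.75e-07). Cluster 7f (chr7:27689340-28379255) held 3 called lower, with Zfp36 the lowest, 2 not called and Zfp607, which was below 10 CPM in ESC (0.50 ± 0.11). In cluster 17a (chr17:21008916-23599487), the widest with 12 members, 2 were called higher, 1 lower and 7 not called, and the 10 members at 10 CPM or more in all groups summed to 188, 175 and 168 CPM in ESC, Eo- and Eo+ cells. Its lowest value was that of Zfp229 and its highest that of Zfp942 (XLOC_031419, chr17:21926879-21962669, minus strand), which was read at 11.4, 10.1, 11.5 and 10.6 CPM in ESC, 19.9, 17.5, 21.9 and 18.9 CPM in Eo- and 19.8, 18.6, 21.3 and 18.5 CPM in Eo+ libraries. The fractions overlapped fully and lay above ESC, with 0.84 ± 0.10 (SE, adjusted p = 2.87e-06) in Eo+ vs ESC. In cluster 17b (chr17:32765491-33645706), 4 of 11 members were called higher and 3 lower, from Zfp955a (log2 fold change -0.58 ± 0.14, adjusted p = 0.00147) to Zfp799 (log2 fold change 0.82 ± 0.11, adjusted p = 1.15e-05). In cluster 13b (chr13:66418114-67827900) the joined locus of Zfp58 and Zfp87 rose (log2 fold change 0.41 ± 0.09, adjusted p = 0.000714), that of Zfp65 and Zfp738 fell (log2 fold change -0.46 ± 0.11, adjusted p = 0.00168) and 3 others at this level were not called, while the 5 members at 10 CPM or more in all groups summed to 132, 136 and 119.9 CPM in the same order. The Zfp640 locus and Zfp459, given above, also lie in this cluster and were lower in Eo+ than in ESC cells, below 10 CPM. With them the cluster summed to 194.2, 165.4 and 124.6 CPM. The pairs in clusters 2b and X also parted: Zfp334 rose and Zfp335 fell, and Zfp275 rose (log2 fold change 0.71 ± 0.09, adjusted p = 5.49e-06) while Zfp185 fell.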

How the data were processed

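RNA of 4 ESC, 4 Eo- and 4 Eo+ libraries was sequenced by the authors as poly(A) paired-end reads, aligned with STAR (2.0.4 in the submitters' processing notes), assembled and merged with Cufflinks 2.2.1 and Ensembl annotation, and counted per locus with HTSeq 0.6.1 on mm10. The deposited count table holds whole-number counts per locus, and reads that mapped to several places were set aside. The deposited normalized table holds, per the file headers and values, a signal per locus that equals the authors' counts divided by 1 constant per library, close to CPM; it decided membership only.

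CPM values here were computed from the counts with TMM library sizes, and FPKM with the summed exon length of the locus. The main test was limma-voom (limma 3.58.1, edgeR 4.0.16, R 4.3.3) with 1 mean per group over all 12 libraries, two-sided, adjusted by Benjamini-Hochberg over 17922 loci with a mean FPKM over 0.1 in at least 1 group. DESeq2 1.42.0 was an alternative. The fit was also run on simulated counts with known changes, and the outcome is not given here. Biotypes came from GENCODE M21.

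Members, role lists and clusters were chosen with earlier results of these data known, so no list is independent evidence. Named were the genes of the role lists, the 4 largest rises and falls per comparison among called members with 1 gene name and without overlap, the 3 widest differences among members at 10 CPM in 1 group, the extremes of each cluster, and the members next to the threshold or at the ends of the level range. Zfp26, Zfp146, Zfp266, Zfp282, Zfp68, Zfp74, Zfp157, Zfp746, Zfp846 and Zfp930, members shown for a promoter site and Zfp599 were chosen after their values were seen. Zfp638 and Zfp989 had no locus of this name. Protein features were not analysed here.

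The methods name 4 differentiation sets and the labels number the libraries 1, 2, 5 and 6 in each group; no source used here ties the numbers to the sets. Deviations from group means of same-numbered Eo- and Eo+ libraries correlated at 0.634, 0.311, 0.372 and 0.408, so the fractions were treated as paired in a block fit. Same-numbered ESC and sorted libraries showed no uniform pairing (-0.125 to 0.432). ESC and Eo- correlated at 0.254 and 0.432 in replicates 1 and 2, but at -0.125 and -0.021 in replicates 5 and 6. P-values measure the spread between these cultures of 1 line. Alternatives were other scalings, filters, thresholds, DESeq2, the block, and leaving out each library.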

Additional observations from a re-analysis of the deposited data

Results flagged for a closer look

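In 15 of 273 tested groups of 4 libraries, 1 library lay far from the others by Dixon's test, a share near the 1 in 20 that chance gives. In Eo+ cells these were Zfp113 in replicate 6 (20.9 CPM), Zfp324 in replicate 5 (9.13 CPM), the joined locus of Zfp345 and Zfp442 in replicate 6 (24 CPM), Zfp462 in replicate 5 (16 CPM), Zfp518a in replicate 2 (36.4 CPM) and Zfp935 in replicate 1 (13.1 CPM). In Eo- cells they were Zfp296 in replicate 2 (13.2 CPM), Zfp459 in replicate 6 (16 CPM), Zfp628 in replicate 5 (11.3 CPM), Zfp687 in replicate 5 (74 CPM) and Zfp707 in replicate 2 (11.5 CPM). In ESC they were Zfp330 in replicate 6 (85.3 CPM), Zfp553 in replicate 2 (86.9 CPM), the Zfp640 locus in replicate 5 (24.5 CPM) and Zfp961 in replicate 1 (90.9 CPM).

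Zfp185 differed from ESC in opposite directions in the 2 fractions. It was lower in Eo+ cells (log2 fold change -0.43) and higher in Eo- cells (0.41), and the difference between both effects, which is the Eo+ vs Eo- comparison of the same fit, was -0.84 (limma, adjusted p = 5.76e-05). Both effects share the ESC libraries.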

How the results depend on the processing

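No count of called members, in total or by direction, changed by over 1.5 times under edgeR's quasi-likelihood test, DESeq2, library totals, DESeq2 size factors, a filter at 1 CPM for 4 or more libraries, the replicate block or a fit of only the 8 libraries compared, and no member called in both settings changed sign. Counts under another level threshold moved by construction, since the set of members counted differed, and a 2-fold requirement can only lower a count. Requiring a 2-fold change as well left 27 members in Eo+ vs ESC (15 higher, 12 lower), 12 in Eo- vs ESC (3 higher, 9 lower) and 2 in Eo+ vs Eo- (2 higher, 0 lower). A threshold of 20 CPM left 75 called in Eo+ vs ESC (36 higher), 66 in Eo- vs ESC (29 higher, 37 lower) and 44 in Eo+ vs Eo- (25 higher, 19 lower), and one of 5 CPM gave 112 higher in Eo+ vs ESC and 96 higher in Eo- vs ESC. With no filter, 29 were called higher in Eo+ vs Eo-, where the cause was not tested.

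Leaving out each library in turn gave 116 to 128 calls in Eo+ vs ESC (66 to 72 higher, 49 to 57 lower), 109 to 119 in Eo- vs ESC (56 to 63 higher, 51 to 58 lower) and 62 to 82 in Eo+ vs Eo- (39 to 53 higher, 21 to 31 lower). The replicate block over all 12 libraries gave 132 calls in Eo+ vs ESC (74 higher, 58 lower), 125 in Eo- vs ESC (67 higher, 58 lower) and 92 in Eo+ vs Eo- (56 higher, 36 lower). Limited to the 8 sorted libraries it gave 106 in Eo+ vs Eo- (64 higher, 42 lower). Among named members and settings, 73 values lost a call, 55 gained one and 3237 were counted as unchanged. For tested members, unchanged means the same side of the threshold, and uncalled values could change sign. For members below 10 CPM in a group, it means a shift smaller than the SE of the log2 fold change times the square root of 2. The 2 values beyond this limit were those of Zfp462 without Eo+ replicate 5. Members near 10 CPM, joined loci and close paralogs limit what a locus count can assign to 1 gene.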
